A study of Mus musculus with 18 samples.

Results

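The chemokine genes *Cxcl1*, *Cxcl2*, *Cxcl3*, *Cxcl16* and *Pf4*, all encoding ligands of the CXC family, were taken by gene name from an RNA-seq table of bone marrow-derived macrophages (BMDMs). They are 5 of the 20615 genes in the table, each was found in 1 row, and all 5 passed the filter on low counts that kept 15789 genes for testing. There were 18 BMDM samples, 3 in each of 6 groups. BMDMs came from C57BL/6 (B6) mice or from C57BL/6.NOD-*Aec1Aec2* (SjSs) mice, a model of Sjögren's syndrome in which the NOD intervals *Idd3* (*Aec1*) and *Idd5* (*Aec2*) were bred onto the B6 background. Both strains were 7 to 12 weeks old. Marrow cells of both were grown to day 7 in medium with L929 cell supernatant as the source of M-CSF. Control BMDMs were left untreated, CpG treated BMDMs received 1 µM of CpG oligonucleotide, a ligand of endosomal Toll-like receptors, for 6 h, and AC treated BMDMs received apoptotic cells at 5 per BMDM for 2 h.

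The apoptotic cells were thymocytes killed with dexamethasone. They were washed away before a further incubation, which was 3 h by the labels and 4 h by the study's methods. Whether control and CpG treated BMDMs also had this incubation is not clear, so time since the stimulus may differ between AC and CpG groups. The strain that gave the thymocytes of each RNA-seq sample is not stated. The BMDMs of each strain came from 3 mice, and whether samples with the same number share a mouse is not stated, so p-values measure the spread between these samples. The NOD intervals lie on chromosomes 1 and 3, while the 5 genes lie on chromosomes 5 and 11. Total counts per sample ran from 30688336 to 57139662 with a median of 47912525, and the lowest, control SjSs replicate 2, had 64.1% of the median. All 8 macrophage markers examined had counts in every group, with a summed level of 15105 to 23748 CPM (counts per 1000000 counts, scaled by the TMM method) in each sample.

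CXC chemokines are small secreted proteins that direct the movement of leukocytes through G protein-coupled receptors. *Cxcl1*, *Cxcl2* and *Cxcl3* encode the closely related ligands KC, MIP-2 and DCIP-1, which carry the ELR motif and draw neutrophils through the receptor CXCR2. Macrophages transcribe them within hours of Toll-like receptor or cytokine stimulation, largely through NF-kB, and their mRNAs are short-lived. *Cxcl16* encodes a transmembrane chemokine that also acts as a scavenger receptor, is shed by ADAM proteases and is recognised by CXCR6 on T cells. *Pf4* encodes platelet factor 4 (CXCL4), a ligand without the ELR motif that is stored in platelet granules and is also made by macrophages.

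All members but *Cxcl16* lie in a run of CXC ligand genes on chromosome 5 (GRCm38, GENCODE M21, all on the plus strand). *Pf4* is at chr5:90772435-90773383, *Cxcl3* at chr5:90786103-90789600, *Cxcl1* at chr5:90891241-90893115 and *Cxcl2* at chr5:90903871-90905938. The gap from *Pf4* to *Cxcl3* is 12.7 kb, that from *Cxcl3* to *Cxcl1* is 102 kb and that from *Cxcl1* to *Cxcl2* is 10.8 kb, and the gene of another platelet chemokine, *Ppbp*, ends 2.37 kb before *Pf4*. *Cxcl16* is at chr11:70453983-70459984 on the minus strand, where it overlaps the opposite-strand gene *Zmynd15* by 552 bases. Strand use in the counting is not given in the sources used here, and the *Zmynd15* level was 3.61% to 8.54% of the *Cxcl16* level over the 6 groups. Of the 50-base words in annotated transcripts, 5.84% of those of *Cxcl2* were shared with *Cxcl3* and 4.24% of those of *Cxcl3* with *Cxcl2* or other genes, so reads in these stretches could be split between genes, whereas *Cxcl1*, *Cxcl16* and *Pf4* shared none.

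Promoter sequences are shown for *Cxcl1*, *Cxcl2* and *Cxcl3* and for their neighbour *Pf4*. The first 3 moved together in every treated group, while *Pf4* passed the fold threshold in none. Each line gives the 120 bases before the RefSeq transcription start in GRCm38.p6, 5′ to 3′ on the plus strand, and capitals mark the longest run of bases that the 250 bases before the starts of *Cxcl1*, *Cxcl2* and *Cxcl3* have in common.
Cxcl1, chr5:90891125-90891244: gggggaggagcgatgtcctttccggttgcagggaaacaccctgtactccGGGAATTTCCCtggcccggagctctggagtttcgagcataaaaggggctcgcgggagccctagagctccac
Cxcl2, chr5:90903779-90903898: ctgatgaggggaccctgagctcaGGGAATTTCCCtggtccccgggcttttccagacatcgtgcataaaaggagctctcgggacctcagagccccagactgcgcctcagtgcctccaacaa
Cxcl3, chr5:90785981-90786100: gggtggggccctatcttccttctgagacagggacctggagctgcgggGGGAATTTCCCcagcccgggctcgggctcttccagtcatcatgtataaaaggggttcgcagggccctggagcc
Pf4, chr5:90772315-90772434: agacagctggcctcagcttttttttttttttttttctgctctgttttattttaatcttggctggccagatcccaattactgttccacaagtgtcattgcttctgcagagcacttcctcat

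The shared run, GGGAATTTCCC, is 11 bases long and has the form of an NF-kB recognition sequence. It spans bases 71 to 61 before the start of *Cxcl1*, bases 97 to 87 before *Cxcl2* and bases 73 to 63 before *Cxcl3*. In windows of 250 bases it occurred in 14 of 32851 RefSeq promoters (0.0426%), searched on both strands. Because the run was taken from *Cxcl1*, *Cxcl2* and *Cxcl3*, its presence in them was set by that choice. The *Pf4* window did not hold these letters, nor did those of the 7 other CXC ligands with an entry, *Ppbp*, *Cxcl15*, *Cxcl9*, *Cxcl10*, *Cxcl12*, *Cxcl13* and *Cxcl14*. Of these 7, *Cxcl9*, *Cxcl10* and *Cxcl13* were called higher with CpG in B6 BMDMs. The run was also in 0 of 13 NF-kB and mRNA decay genes and 0 of 10 other neutrophil-directed genes with an entry. Its part in the responses was not tested. *Cxcl16*, *Cxcl5* and *Cxcl11* had no promoter entry, so the run could not be looked for there. Of these, *Cxcl5* was called higher with ACs and with CpG in both strains. A match is a string of letters, and binding was not measured here.

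A second sequence feature concerned the mRNA ends. The word ATTTA, the core of AU-rich elements that mark short-lived mRNAs, was counted on the sense strand, overlaps allowed, in the longest annotated 3′ untranslated region of each tested protein-coding gene of at least 100 bases there (12119 genes, median 1.35 words per kb). *Cxcl1* had 7 words in 592 bases, or 11.8 per kb, a density reached by 0.330% of the genes. *Cxcl2* had 11 in 1494 bases (7.36 per kb, reached by 1.84%) and *Cxcl3* had 5 in 645 bases (7.75 per kb, reached by 1.44%). *Cxcl16* had 2 in 1421 bases (1.41 per kb), close to the median. The *Pf4* region, of 123 bases, held 1 word, which at this short length is 8.13 per kb, reached by 1.20% of the genes and denser than in *Cxcl2* and *Cxcl3*.

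Without treatment all 5 members had counts in every sample of both strains. *Cxcl1* was at 0.240, 1.48 and 0.924 CPM in the 3 control B6 samples and at 0.847, 1.06 and 0.363 CPM in the 3 control SjSs samples, from 15 to 71 counts each. *Cxcl2* was at 8.29, 9.41 and 13.2 CPM in control B6 and at 6.59, 13.5 and 3.50 CPM in control SjSs BMDMs. *Cxcl3* was at 2.74, 3.71 and 3.14 CPM in control B6 and at 3.08, 3.96 and 3.63 CPM in control SjSs BMDMs. The strains overlapped for all 3 genes.

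*Cxcl16* was at 234, 246 and 258 CPM in control B6 and at 261, 274 and 244 CPM in control SjSs BMDMs. *Pf4* was at 815, 708 and 685 CPM in control B6 and at 791, 934 and 874 CPM in control SjSs BMDMs. Each of these genes also overlapped between the strains. A call required a log2 fold change beyond 1.3 in either direction together with an adjusted p below 0.05 (quasi-likelihood test of edgeR, Benjamini-Hochberg over all tested genes). For SjSs minus B6 controls 0 of 5 members were called, beside 1.3% of all genes higher and 0.716% lower in SjSs, and none had an adjusted p under 0.05, beside 9.04% of all genes higher at that threshold alone. At an unadjusted p under 0.05 there was 1 member, *Pf4*, and DESeq2 called 0. The log2 differences were -0.22 (SE 0.50) for *Cxcl1*, -0.45 (SE 0.29) for *Cxcl2*, 0.15 (SE 0.17) for *Cxcl3*, 0.08 (SE 0.07) for *Cxcl16* and 0.24 (SE 0.10) for *Pf4*, with adjusted p from 0.0964 for *Pf4* to 0.804 for *Cxcl1*. *Cxcl2* rested on single libraries here: without control SjSs replicate 2 its log2 difference was -1.03 (adjusted p = 0.00549), and without control SjSs replicate 3 it was -0.08 (adjusted p = 0.882). *Pf4* had an adjusted p of 0.0496 without control B6 replicate 1. In bulk RNA, fewer cells of a type and less RNA per cell cannot be told apart, here and in all comparisons that follow.

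**Figure D1:**
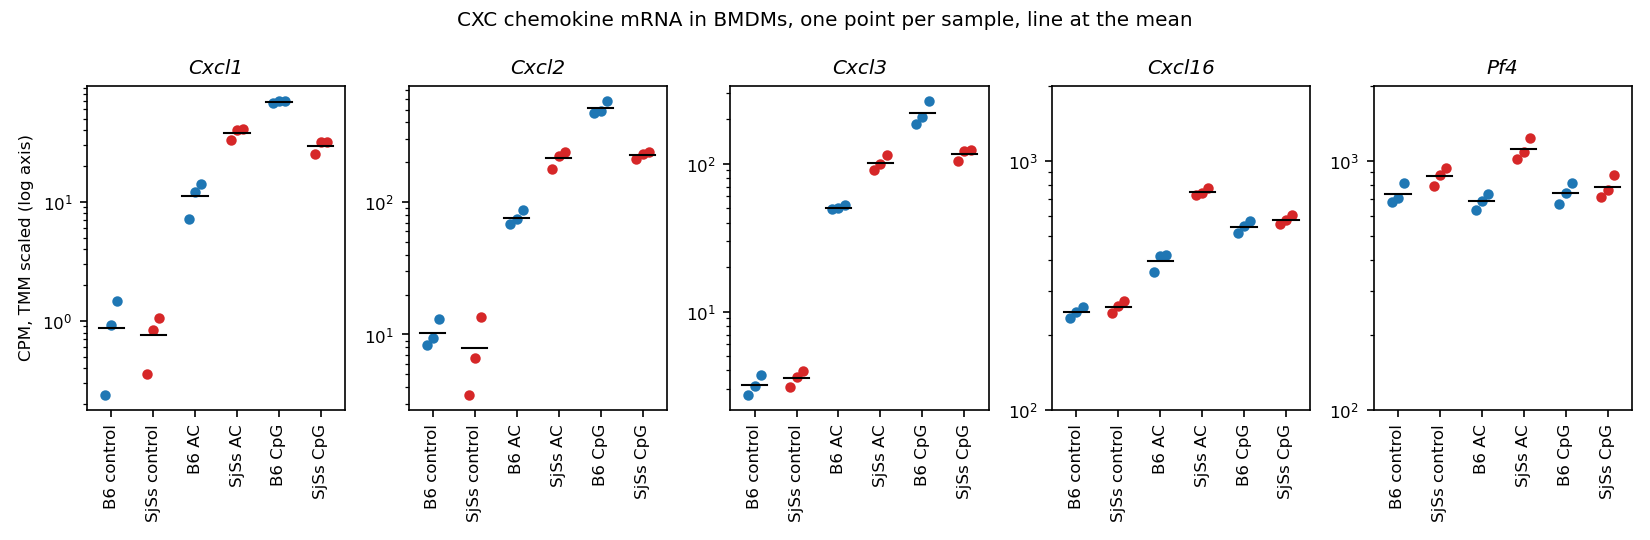
TMM scaled CPM (log axis, scale differs between panels) of the 5 chemokine genes in each of the 18 BMDM samples, B6 in blue and SjSs in red, with a line at the mean of the 3 samples of a group. Cxcl1, Cxcl2 and Cxcl3 are low in the control groups and higher in the treated groups, with SjSs above B6 under AC and below it under CpG, Cxcl16 is highest in the 3 AC treated SjSs samples (730 to 781 CPM), and Pf4 stays between 633 and 1230 CPM throughout.

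ACs raised *Cxcl1*, *Cxcl2* and *Cxcl3* in BMDMs of both strains, and *Cxcl16* by a smaller factor. The comparison asks how macrophages of each strain respond to apoptotic cells. *Cxcl1*, the mouse KC gene, was at 7.13, 12.2 and 14.0 CPM in AC treated B6 BMDMs and at 33.1, 40.1 and 40.6 CPM in AC treated SjSs BMDMs. All 6 treated samples were above the controls, and all 3 SjSs samples were above the B6 samples. The log2 fold change of *Cxcl1* over control was 3.72 (SE 0.34, 13.2-fold, adjusted p = 6.37e-08) in B6 and 5.72 (SE 0.34, 52.6-fold, adjusted p = 3.35e-11) in SjSs BMDMs.

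*Cxcl2*, the MIP-2 gene, was at 68.0, 73.9 and 86.6 CPM in AC treated B6 and at 179, 241 and 222 CPM in AC treated SjSs BMDMs. Its log2 fold change was 2.89 (SE 0.27, 7.39-fold, adjusted p = 1.07e-07) in B6 and 4.83 (SE 0.30, 28.5-fold, adjusted p = 5.08e-11) in SjSs BMDMs. *Cxcl3* was at 49.7, 49.4 and 52.3 CPM in AC treated B6 and at 90.1, 114 and 99.4 CPM in AC treated SjSs BMDMs. Its log2 fold change was 3.99 (SE 0.14, 15.9-fold, adjusted p = 5.66e-13) in B6 and 4.85 (SE 0.15, 28.8-fold, adjusted p = 2.44e-15) in SjSs BMDMs. For both genes the AC treated SjSs samples lay above all AC treated B6 samples, which lay above all controls.

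*Cxcl16*, the membrane-bound ligand, was at 357, 415 and 419 CPM in AC treated B6 and at 730, 781 and 742 CPM in AC treated SjSs BMDMs. It rose by 0.69 on the log2 scale (SE 0.07, 1.61-fold, adjusted p = 1.73e-07) in B6, under the fold threshold, and by 1.53 (SE 0.07, 2.89-fold, adjusted p = 4.53e-13) in SjSs BMDMs. *Pf4* was at 736, 633 and 692 CPM in AC treated B6 BMDMs, overlapping its controls, with a log2 fold change of -0.10 (SE 0.10, adjusted p = 0.463). In AC treated SjSs BMDMs it was at 1016, 1230 and 1088 CPM, above all control SjSs samples, and rose by 0.36 (SE 0.10, 1.28-fold, adjusted p = 0.00361). The TMM factors were 0.833 to 0.838 in AC treated SjSs and 1.10 to 1.13 in control SjSs samples. Dividing by them raised the former against the latter, and a rise as small as that of *Pf4* depends on this scaling. So do its AC interaction and its place above all other groups, given below. Passing the fold threshold also depends on this scaling for *Cxcl16* in SjSs (1.53) and for *Cxcl2* between AC treated strains (1.49, given below).

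In B6 BMDMs 3 of 5 members were called higher with ACs, beside 2.43% of all genes higher and 2.04% lower, and 4 of 5 had an adjusted p under 0.05 and a higher level, beside 20.0% of all genes. In SjSs BMDMs 4 of 5 were called higher, beside 7.09% of all genes higher and 5.83% lower, and all 5 were higher at an adjusted p under 0.05, beside 28.6% of all genes. Ranked by log2 fold change among the 15789 genes, *Cxcl3*, *Cxcl1* and *Cxcl2* held places 34, 41 and 89 in B6 and places 97, 72 and 99 in SjSs BMDMs.

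CpG raised the same 4 genes, and here B6 BMDMs reached the higher levels of *Cxcl1*, *Cxcl2* and *Cxcl3*. The CpG responses share their control samples with the AC responses, so the values are set side by side only. *Cxcl1* was at 67.1, 70.6 and 70.1 CPM in CpG treated B6 and at 31.9, 25.0 and 31.7 CPM in CpG treated SjSs BMDMs, with log2 fold changes of 6.36 (SE 0.33, 82.2-fold, adjusted p = 4.34e-12) and 5.35 (SE 0.34, 40.9-fold, adjusted p = 1.47e-10). *Cxcl2* was at 583, 487 and 475 CPM in CpG treated B6 and at 213, 230 and 237 CPM in CpG treated SjSs BMDMs, with log2 fold changes of 5.64 (SE 0.30) and 4.92 (SE 0.30). *Cxcl3* was at 266, 186 and 207 CPM in CpG treated B6 and at 105, 125 and 121 CPM in CpG treated SjSs BMDMs, with log2 fold changes of 6.11 (SE 0.15) and 5.05 (SE 0.15). For each of the 3 genes every CpG treated B6 sample was above every CpG treated SjSs sample.

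*Cxcl16* was at 514, 571 and 547 CPM in CpG treated B6 and at 576, 607 and 555 CPM in CpG treated SjSs BMDMs, and these groups overlapped. It rose by 1.15 (SE 0.07, adjusted p = 3.56e-11) and by 1.16 (SE 0.07, adjusted p = 4.18e-11) on the log2 scale, both under the fold threshold. *Pf4* was at 818, 741 and 673 CPM in CpG treated B6 and at 717, 880 and 765 CPM in CpG treated SjSs BMDMs, overlapping its controls, with log2 fold changes of 0.02 (adjusted p = 0.904) and -0.14 (adjusted p = 0.246).

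In B6 BMDMs 3 of 5 members were called higher with CpG, beside 5.86% of all genes higher and 6.88% lower, and 4 of 5 were higher at an adjusted p under 0.05, beside 28.1%. In SjSs BMDMs 3 of 5 were called higher, beside 4.81% of all genes higher and 4.45% lower, and 4 of 5 were higher at an adjusted p under 0.05, beside 27.8%. *Cxcl1* was in place 22 of all genes by log2 fold change in B6 and in place 45 in SjSs BMDMs.

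**Figure D2:**
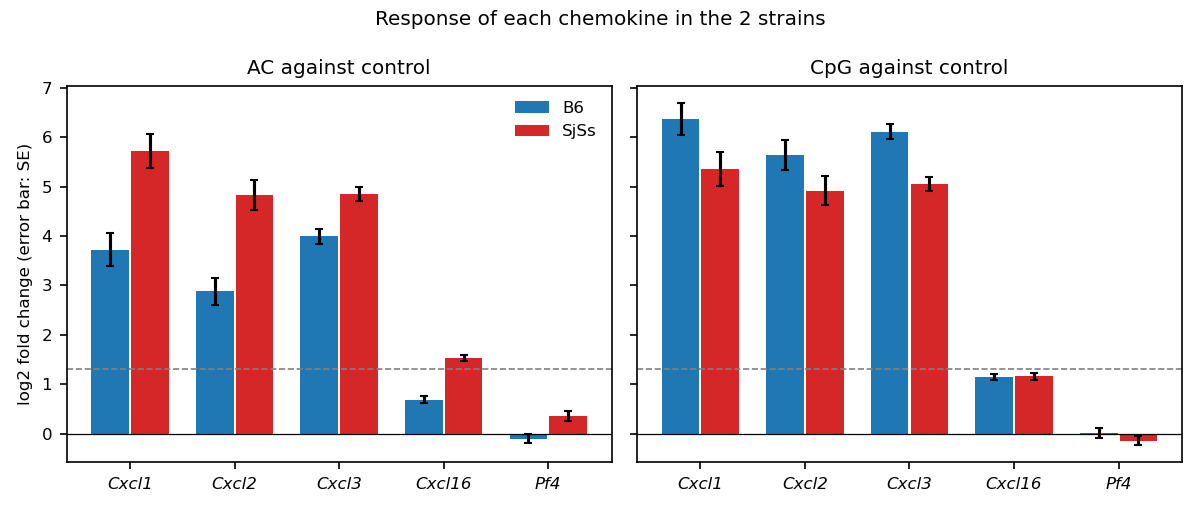
Log2 fold change over control (bars, with the SE) of the 5 chemokine genes with AC (left) and CpG (right), B6 in blue and SjSs in red, and the fold threshold of 1.3 as a dashed line. The SjSs bars are taller with AC for Cxcl1 (5.72 against 3.72), Cxcl2, Cxcl3 and Cxcl16, and the B6 bars are taller with CpG for Cxcl1 (6.36 against 5.35), Cxcl2 and Cxcl3.

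Between AC treated BMDMs of the strains, all 5 members were higher in SjSs. The log2 difference, SjSs minus B6, was 1.77 (SE 0.24, 3.42-fold, adjusted p = 6.53e-06) for *Cxcl1* and 1.49 (SE 0.25, 2.81-fold, adjusted p = 5.60e-05) for *Cxcl2*. It was 1.00 (SE 0.12, adjusted p = 8.48e-07) for *Cxcl3*, 0.92 (SE 0.07, adjusted p = 1.42e-09) for *Cxcl16* and 0.69 (SE 0.10, adjusted p = 8.59e-06) for *Pf4*. The groups did not overlap for any member, and the share of all genes without overlap was not counted. At an adjusted p under 0.05 alone 5 of 5 were higher, beside 24.0% of all genes, and past the fold threshold 2 of 5 were called higher, beside 6.24% of all genes higher and 2.69% lower.

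Between CpG treated BMDMs *Cxcl1*, *Cxcl2* and *Cxcl3* were lower in SjSs and the other 2 members did not differ by the test. The log2 difference was -1.23 (SE 0.23, adjusted p = 0.000822) for *Cxcl1*, -1.18 (SE 0.24, adjusted p = 0.00178) for *Cxcl2* and -0.91 (SE 0.11, adjusted p = 1.48e-05) for *Cxcl3*, so that SjSs BMDMs held 0.426, 0.441 and 0.531 of the B6 level. It was 0.09 (SE 0.07, adjusted p = 0.382) for *Cxcl16* and 0.08 (SE 0.10, adjusted p = 0.611) for *Pf4*. At an adjusted p under 0.05 alone 3 of 5 were lower, beside 9.57% of all genes. No member passed the fold threshold in edgeR or in DESeq2, beside 1.82% of all genes higher and 0.792% lower.

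**Figure D3:**
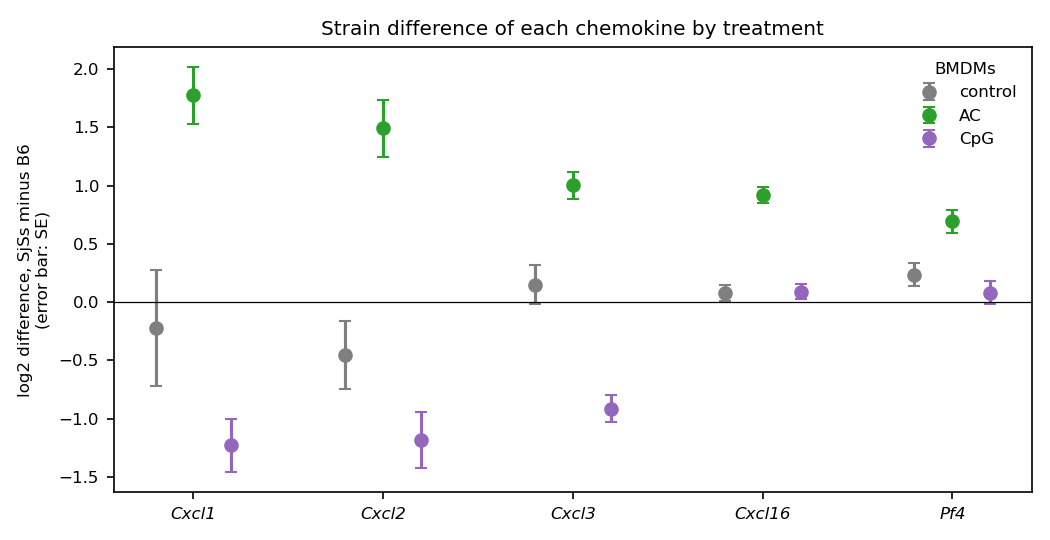
Log2 difference between the strains (SjSs minus B6, points with the SE) of the 5 chemokine genes in control, AC treated and CpG treated BMDMs. All 5 AC points lie above 0 (0.69 to 1.77), and the CpG points of Cxcl1, Cxcl2 and Cxcl3 lie below 0 (-1.23, -1.18 and -0.91) while those of Cxcl16 and Pf4 lie near 0.

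The difference of the responses was tested as an interaction of strain and treatment. With ACs the response was larger in SjSs for all 5 members at an adjusted p under 0.05, beside 19.6% of all genes. The difference of log2 fold changes, SjSs minus B6, was 2.00 for *Cxcl1* (SE 0.55, adjusted p = 0.00765), 1.95 for *Cxcl2* (SE 0.38, adjusted p = 0.000489), 0.86 for *Cxcl3* (SE 0.20, adjusted p = 0.00273), 0.84 for *Cxcl16* (SE 0.10, adjusted p = 1.06e-06) and 0.46 for *Pf4* (SE 0.14, adjusted p = 0.0126). Past the fold threshold 2 of 5 were called, *Cxcl1* and *Cxcl2*, beside 4.76% of all genes higher and 2.77% lower. The *Cxcl1* call depended on control B6 replicate 2, the sample with the highest control level: without it the difference was 1.43 (adjusted p = 0.0702).

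With CpG the response was smaller in SjSs for *Cxcl3*, by -1.06 on the log2 scale (SE 0.20, adjusted p = 0.00397), the only 1 of 5 members at an adjusted p under 0.05, beside 2.62% of all genes. The values were -1.01 (SE 0.55, adjusted p = 0.327) for *Cxcl1*, -0.73 (SE 0.38, adjusted p = 0.293) for *Cxcl2*, 0.01 (SE 0.09) for *Cxcl16* and -0.15 (SE 0.14) for *Pf4*. No member was called past the fold threshold in edgeR or in DESeq2, beside 0.285% of all genes higher and 0.329% lower, and 1 had an unadjusted p under 0.05. The *Cxcl2* value rested on single control SjSs libraries, at -1.11 (adjusted p = 0.0398) without replicate 3 and -0.15 (adjusted p = 0.837) without replicate 2.

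Ordered by mean level, the groups ran for *Cxcl1* from both controls, which overlapped, through AC treated B6 (11.1 ± 3.57 CPM, SD, n = 3), CpG treated SjSs (29.5 ± 3.92) and AC treated SjSs (37.9 ± 4.17) to CpG treated B6 (69.3 ± 1.91), with no overlap among the treated groups. *Cxcl2* and *Cxcl3* had the same lowest and highest groups, but AC treated and CpG treated SjSs BMDMs overlapped, at 214 ± 31.6 and 227 ± 12.2 CPM for *Cxcl2* and at 101 ± 12.2 and 117 ± 10.6 CPM for *Cxcl3*. For *Cxcl16* the order was both controls, AC treated B6 (397 ± 34.8 CPM), both CpG groups, which overlapped, and AC treated SjSs (751 ± 26.8). For *Pf4* each neighbouring pair in the order overlapped except that AC treated SjSs BMDMs (1112 ± 109 CPM) stood above the rest. Over the 18 samples, which share their treatments and strains, log2 CPM of *Cxcl1*, *Cxcl2* and *Cxcl3* had pairwise Pearson correlations of 0.98. Their correlations with *Cxcl16* were 0.91 to 0.93 and those with *Pf4* 0.10 to 0.11. *Pf4* had 0.41 with *Cxcl16*.

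Per length, *Pf4* was the most abundant member in every group. Divided by the union of its annotated exons it had 1021 ± 96.6 CPM per kb in control B6 and 1542 ± 151 in AC treated SjSs BMDMs, against 81.4 ± 4.10 and 249 ± 8.87 for *Cxcl16*. Among all 13 CXC ligands of the table, *Pf4* held 86.3% of the summed level per kb in control B6, 89.3% in control SjSs, 74.8% in AC treated B6 and 63.4% in CpG treated B6 BMDMs. In AC treated SjSs BMDMs it held 37.1%, while *Cxcl10*, a ligand of CXCR3, held 51.9%. *Cxcl2* held 15.3% with CpG in B6 and 7.41% in SjSs BMDMs. The exon unions of *Cxcl1*, *Cxcl2* and *Cxcl3* include retained-intron models. With the longest protein-coding transcript instead, a choice made after seeing the data, *Cxcl3* went from 3.85% to 10.2% of the total in CpG treated B6 BMDMs, and the *Cxcl2* to *Cxcl3* ratio in AC treated B6 BMDMs went from 2.55 to 0.823, so no order is given between these genes. *Cxcl2* exceeded *Cxcl1* per kb in all 18 samples by either length, with mean ratios in treated groups of 5.11 to 7.07 by exon union and 2.89 to 4.0 by coding transcript.

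**Figure D4:**
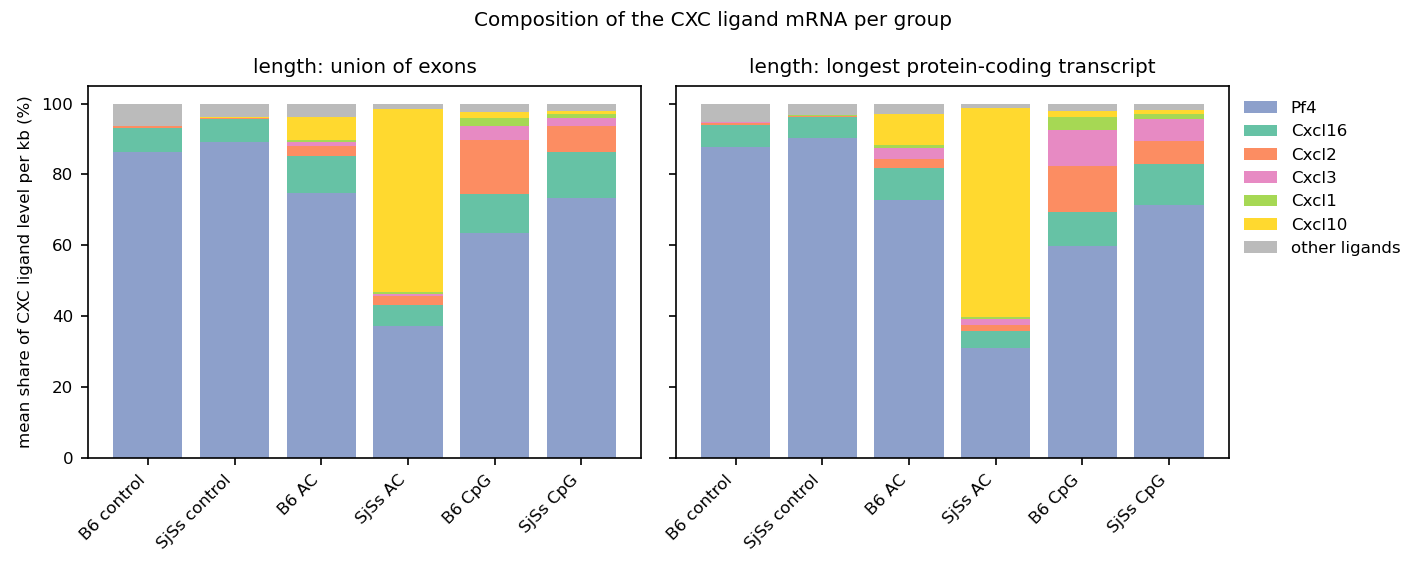
Mean share (%) of each ligand in the summed CPM per kb of the 13 CXC ligands in each group of 3 samples, with length as the union of exons (left) or the longest protein-coding transcript (right). Pf4 holds the largest share in 5 of the 6 groups, Cxcl10 in AC treated SjSs BMDMs (51.9% by exon union), and the Cxcl2 and Cxcl3 segments are largest in CpG treated B6 BMDMs.

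Of the 8 other CXC ligands tested, 4 were called higher with ACs in each strain and 5 with CpG in each strain. With CpG in B6 1, *Cxcl14*, was called lower, beside 6.88% of all genes. The shares of all genes called higher were 2.43% and 7.09% with ACs and 5.86% and 4.81% with CpG in B6 and SjSs. *Ppbp* and *Cxcl12* were called in no response. *Cxcl5* was called higher in each response, and with CpG it was at 8.77 ± 1.10 CPM in B6 and 9.23 ± 2.32 CPM in SjSs BMDMs. Among the CpG calls, that of *Cxcl11* in B6 rested on 3 counts, with groups that overlapped, and was lost with DESeq2 (adjusted p = 0.1), under the replicate block (adjusted p = 0.0557), without the filter on low counts (adjusted p = 0.061) and with each of 5 samples left out in turn (adjusted p = 0.0778 to 0.206). That of *Cxcl13* in SjSs was lost with each of 4 samples left out in turn (adjusted p = 0.0758 to 0.11). Their median log2 fold change was 1.64 and 2.89 with ACs and 3.85 and 3.08 with CpG in B6 and SjSs, where the median of all genes lay between -0.05 and 0.03 in every comparison. Between AC treated strains 4 of 8 were called higher in SjSs (median 1.17), beside 6.24% of all genes. Between CpG treated strains 1, *Cxcl13*, was called lower (median -0.35), beside 0.792% of all genes. Without CpG treated B6 replicate 1 the adjusted p of *Cxcl13* was 0.0564. Between controls edgeR called 0, with 4 at an unadjusted p under 0.05, and DESeq2 called 1. *Cxcl10* went from 1.25 ± 0.24 to 191 ± 12.1 CPM with ACs in B6 and from 2.55 ± 1.64 to 4847 ± 266 CPM in SjSs BMDMs, and its interaction was 3.74 with AC (SE 0.43, adjusted p = 1.20e-06) and -2.03 with CpG (SE 0.41, adjusted p = 0.0055), the same signs as *Cxcl1*, *Cxcl2* and *Cxcl3*. *Cxcl11*, another CXCR3 ligand, had 0 counts in all controls and was at least 26.3-fold higher with ACs in B6 and at least 904-fold higher in SjSs BMDMs, with the 3 control samples together set to 3 counts as the floor. *Cxcl9*, the last CXCR3 ligand, was 32.8 ± 6.53 CPM in AC treated SjSs and 0.198 ± 0.040 CPM in AC treated B6 BMDMs.

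Of 9 CXC and atypical chemokine receptor genes in the table, the filter on low counts kept 3. *Cxcr1* and *Cxcr2*, the receptors of the ELR chemokines, did not, and had at most 22 counts over the 3 samples of a group. *Cxcr4*, the receptor of CXCL12, fell with CpG by 5.46 on the log2 scale in B6 (adjusted p = 2.81e-12) and by 2.64 in SjSs BMDMs (adjusted p = 5.88e-09). With ACs it fell by 0.54 in B6 (adjusted p = 0.0465) and by 1.5 in SjSs BMDMs (adjusted p = 4.95e-06), and the difference of these responses, -0.96 (adjusted p = 0.0140), was under the fold threshold. With CpG *Cxcr4* was at 3.53 ± 1.57 CPM in B6 and 51.2 ± 17.7 CPM in SjSs BMDMs, a log2 difference of 3.88 (adjusted p = 8.15e-09), and the CpG interaction was 2.82 (adjusted p = 7.28e-05), the only receptor calls between strains. *Cxcr3* fell by 1.5 with ACs in SjSs (1.26, under the threshold, without control SjSs replicate 3) and by 2.21 with CpG in B6 BMDMs. No receptor of the 3 was called higher with ACs or CpG, beside 2.43% to 7.09% of all genes in the 4 responses. *Cxcr6*, which recognises CXCL16, was tested and had no adjusted p under 0.05 in the 9 comparisons.

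Of 5 genes of CXCL16 shedding, *Rhbdf2*, which brings the protease ADAM17 to the cell surface, was 110 ± 4.22 CPM in control and 110 ± 8.23 CPM in AC treated B6 BMDMs, and 73.5 ± 10 and 241 ± 2.47 CPM in SjSs BMDMs. Its interaction with AC was 1.72 (SE 0.11, adjusted p = 8.57e-10). *Timp3*, an inhibitor of ADAM17, was higher in SjSs in controls (1.84, adjusted p = 4.31e-05), with ACs (1.33, adjusted p = 0.000149, or 1.20 without AC treated SjSs replicate 2) and with CpG (2.09, adjusted p = 2.16e-05). *Adam17* itself rose under the fold threshold, by 0.34 and 0.97 with ACs and by 1.10 and 1.10 with CpG in B6 and SjSs, with an AC interaction of 0.63 (SE 0.07, adjusted p = 1.51e-06). *Adam10*, the other CXCL16 sheddase, fell under the fold threshold by 0.44 and 0.55 with ACs and by 0.77 and 0.68 with CpG.

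Of 17 NF-kB subunits, inhibitors and mRNA decay factors, 3 were called higher with ACs in B6 and 11 in SjSs, with 1 lower in SjSs. With CpG 10 were called higher in B6 and 9 in SjSs, with 1 lower in each. The shares of all genes called higher were 2.43% and 7.09% with ACs and 5.86% and 4.81% with CpG. The median log2 fold change of the 17 was 0.64 and 2.15 with ACs and 1.42 and 1.59 with CpG. The lower gene was *Zfp36l1*, which promotes decay of AU-rich mRNAs, in each case. Of all genes 5.83% were called lower with ACs in SjSs, and 6.88% and 4.45% with CpG in B6 and SjSs, so 1 of 17 is near these shares. In the interaction with AC 7 of 17 were called higher and 1 lower (median 1.11), beside 4.76% and 2.77% of all genes. In the interaction with CpG 0 were called in edgeR or DESeq2, beside 0.285% of all genes higher and 0.329% lower in edgeR. There 9 of the 17 had an unadjusted p under 0.05 in edgeR. *Nfkbiz*, the IkB-zeta gene, rose with CpG by 4.95 (SE 0.13) in B6 and 4.62 (SE 0.13) in SjSs BMDMs, and its AC interaction was 1.60 (SE 0.16, adjusted p = 1.97e-07). *Arid5a*, which stabilises some cytokine mRNAs, had an AC interaction of 4.19 (SE 0.18, adjusted p = 5.86e-12), *Tnfaip3*, the A20 gene, 1.85 (SE 0.13) and *Nfkbie* 1.71 (SE 0.15).

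Of 11 other genes that act on neutrophils and were tested, 9 were called higher with ACs in B6 and 10 in SjSs, beside 2.43% and 7.09% of all genes. With CpG 9 of the 11 were called higher in each strain, beside 5.86% in B6 and 4.81% in SjSs. Their median log2 fold change was 2.00 and 5.24 with ACs and 4.53 and 4.40 with CpG. Between AC treated strains 9 were called higher in SjSs, beside 6.24% of all genes. Of the 9, *Il1b* was under the fold threshold without AC treated B6 replicate 1 (1.17) and *Sele* was not called by DESeq2 (adjusted p = 0.291). Between CpG treated strains 4 were called lower (*Csf3*, *Il1a*, *Il1b* and *Ptgs2*), beside 0.792% of all genes. Between controls 1, *Il1b*, was called lower, beside 0.716%. It passed the fold threshold neither without control B6 replicate 3 (-1.16) nor without control SjSs replicate 1 (-1.20). The interaction was called higher for 8 with AC, beside 4.76% of all genes, and lower for 3 with CpG (*Il1a*, *Il1b* and *Ptgs2*), beside 0.329%. *Il1b* went from 5.26 ± 1.63 CPM in control to 1028 ± 239 CPM in CpG treated B6 BMDMs, but from 1.97 ± 0.56 to 109 ± 13.4 CPM in SjSs BMDMs. With ACs *Il6* was at 5.27 ± 1.38 CPM in B6 and 69.3 ± 12.0 CPM in SjSs BMDMs. *Csf3*, the G-CSF gene that drives neutrophil production, had 0 counts in all controls and was at least 913-fold higher with CpG in B6 and at least 88.3-fold higher in SjSs BMDMs, against the same floor. *Sele*, an endothelial selectin gene, had 48 counts in all in AC treated SjSs BMDMs, where its response was not called by DESeq2 (adjusted p = 0.202).

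Markers of other cell types were read beside these results. Of 12 neutrophil and granulocyte precursor genes 8 were in the table, and their summed level was 77.3 to 92.0 CPM in control B6, 83.2 to 87.7 in control SjSs, 35.7 to 49.2 in AC treated B6, 71.4 to 74.0 in AC treated SjSs, 62.1 to 77.9 in CpG treated B6 and 58.8 to 63.4 in CpG treated SjSs BMDMs. In AC treated BMDMs the sum was higher in SjSs, and most of it was *Mmp8*, a neutrophil collagenase gene, at 39.7 CPM in B6 and 69.5 CPM in SjSs. With ACs *S100a8* was at 3.22 CPM in B6 and 2.21 CPM in SjSs BMDMs, and the other 6 genes, among them *S100a9*, *Camp* and *Ltf*, were each under 1 CPM in both groups. The part of such cells in the strain difference of the members was not tested. Of 11 megakaryocyte and platelet genes other than *Pf4* 10 were in the table, with a summed level of 32.8 to 34.1 CPM in control SjSs and 25.2 to 31.3 CPM in AC treated SjSs BMDMs, where *Pf4* was higher, and of 16.6 to 23.2 CPM in AC treated B6 BMDMs. Of these, *Ppbp* was at 12.1 CPM in control SjSs, 14.9 CPM in AC treated SjSs and 9.29 CPM in AC treated B6 BMDMs. In the same order *Vwf* was at 14.1, 8.53 and 6.61 CPM and *Itgb3* at 5.00, 3.96 and 2.15 CPM. *Itga2b* and *Gp9* were under 1 CPM in every group mean. The part of platelet-lineage RNA in the *Pf4* level was not tested. The 7 fibroblast and stromal genes summed to 153 to 238 CPM in the SjSs samples and 41.8 to 138 CPM in the B6 samples in every condition, most of it *Col1a1* and *Col1a2*, and their part in the strain differences was not tested. The 12 thymocyte and T cell genes summed to at most 1.58 CPM in any sample, with AC treated samples at 1.16 to 1.58 CPM. Control samples were lower, at 0.320 to 0.391 CPM in B6 and 0.296 to 0.700 CPM in SjSs. The only gene of the 12 that was tested, *Lck*, was called higher with ACs in SjSs BMDMs.

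The genes whose log2 CPM was most like that of each member over the 18 samples, among 12292 genes with a mean of at least 1 CPM, were *Tnfrsf1b*, *Stip1* and *Lilrb4a* for *Cxcl1* (Pearson r of 0.98 each), *Tma16*, *St3gal1* and *Lrrc59* for *Cxcl2* (0.99 each) and *Procr*, *Lrrc59* and *St3gal1* for *Cxcl3* (0.99 each). *Zdhhc18*, *Layn* and *Fgl2* were most like *Cxcl16* (0.99 each), and *Prdx4*, *Rps6-ps4* and *Ddost* most like *Pf4* (0.92 to 0.93). These values describe 18 samples that share strains and treatments. *Lrrc59* and *St3gal1* stood in the list of both *Cxcl2* and *Cxcl3*.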

How the data were processed

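RNA-seq of 18 BMDM samples was analysed, 3 in each of 6 groups assigned from the labels. The authors aligned reads to mm10 with STAR and quantified genes in Partek, and they deposited 1 table of unnormalized estimated counts for 20615 genes. Of the deposited expected counts 41.1% were not whole (tolerance 1e-06), and all were rounded before testing. Strand use and the versions of STAR and Partek are not given in the sources used here. All gene rows had a name.

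Tests were run with edgeR 4.0.16 under R 4.3.3 (filterByExpr by group, 15789 genes; TMM; 1 mean for each of 6 groups; quasi-likelihood test) with Benjamini-Hochberg adjustment over all tested genes in each of 9 comparisons. Calls required an adjusted p below 0.05 together with a log2 fold change beyond 1.3 in either direction. SEs are the log2 fold change divided by the root of F, and folds of genes at 0 use a floor of 3 counts over the group, which covers counting error only. Exact permutation of 3 against 3 samples cannot go below p = 0.1 and was replaced by statements on overlap. Levels are TMM scaled CPM, given as mean ± SD, and per kb with GENCODE M21 lengths. Likeness was measured on log2 CPM (prior count 2). Tables were made with Python 3.11.15, pandas 2.3.3 and numpy 2.4.6, and the tests were checked on simulated counts.

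The 5 members and all lists were chosen with earlier results of these data known. Named are the 5 members, up to 4 genes of each list with the largest log2 fold change in size in any comparison, and the 3 genes most like each member. *Zfp36l1*, *Cxcl12*, *Cxcl14*, *Ppbp*, *Il1a* and *Ptgs2* were named after their values were seen, as members of small counts. *Cxcl5*, *Cxcr1*, *Cxcr2*, *Zmynd15* and single marker genes were named as background. Alternatives were DESeq2 1.42.0, its size factors in edgeR, other filters on low counts, no fold threshold, only the compared groups, the replicate block, each sample left out, a prior count of 0.5, 6 group means and other lengths. Same-numbered samples deviated together with every r over 0.1 in 1 of 9 pairs of groups, control and CpG treated B6. Within strains, however, every same-numbered r was positive, at 0.020 to 0.264, against -0.252 to 0.0745 for unlike numbers. Samples of a strain with the same number may therefore share a mouse. The main tests used no block and treated all samples as independent, and the replicate block is given as an alternative.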

Additional observations from a re-analysis of the deposited data

Results flagged for a closer look

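For 6 results the 2 strains' responses under the same treatment differed by the test of the difference itself (edgeR's quasi-likelihood test of the interaction, adjusted p under 0.05 over 15789 genes, SjSs minus B6 on the log2 scale). With ACs these were 2.00 for *Cxcl1*, 1.95 for *Cxcl2*, 0.86 for *Cxcl3*, 0.84 for *Cxcl16* and 0.46 for *Pf4*, all larger in SjSs BMDMs. With CpG it was -1.06 for *Cxcl3*, smaller in SjSs BMDMs. The AC and CpG interactions share the control samples of both strains. The sign was the same with each of 12 samples left out in turn, with ranges of 1.43 to 2.49, 1.57 to 2.52, 0.74 to 0.96, 0.77 to 0.88 and 0.38 to 0.52 for the AC values in that order and -1.18 to -0.90 for *Cxcl3* with CpG.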

How the results depend on the processing

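Of the 645 recomputed log2 fold changes of members, 615 kept their direction and their side of the thresholds. Without the fold threshold the genes called over the whole table were 6047 (AC, B6), 9154 (AC, SjSs), 9147 (CpG, B6), 8560 (CpG, SjSs), 3096, 7807 and 3118 (strains in control, AC and CpG) and 5987 and 923 (interactions with AC and CpG), and the members called were 5 and 3 between AC and CpG treated strains and 5 and 1 in the interactions, by construction. With single samples left out, the count of members called in the AC interaction ranged from 1 to 2, where the 1 came without control B6 replicate 2. Signs of members' values changed in the 4 cases given next, each smaller than its SE. The CpG response of *Pf4* in B6 was -0.0021 without the filter on low counts and ranged from -0.058 to 0.095 with samples left out. Ranges with samples left out were -0.72 to 0.34 for *Cxcl1* between controls and -0.010 to 0.16 for *Pf4* between CpG treated strains. The CpG interaction of *Cxcl16* was -0.012 with DESeq2's size factors, -0.012 with DESeq2 and -0.030 to 0.054 with samples left out. The cause was not tested.

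Under the replicate block the AC interaction of *Cxcl1* was 2.02 (adjusted p = 0.00508), and the counts of members called stayed at 3, 4, 3 and 3 for the responses, 0, 2 and 0 between strains and 2 and 0 for the interactions. The block brought *Pf4* in CpG treated SjSs BMDMs to -0.14 (adjusted p = 0.0263), with an SE of 0.05 against 0.10 without the block. *Cxcl11* had 3 counts in all in CpG treated B6 BMDMs, too few to place its level at this depth.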
